A study of Mus musculus with 107 samples.

Results

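The 6 genes for metabotropic glutamate receptors described here were followed across 30 groups of mouse brain and spinal cord arrays: Grm5 of group I, Grm2 and Grm3 of group II, and Grm4, Grm7 and Grm8 of group III. They were matched by symbol in the array annotation, and each was read from the probe set that carries its symbol alone and has the highest mean log2 intensity over all arrays. They are 6 of the 18193 genes measured this way. The other receptors of the family were not analysed here.

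Metabotropic glutamate receptors are G protein-coupled receptors for the main excitatory transmitter of the brain. Group I receptors act through Gq and phospholipase C, mostly on the receiving side of synapses, while group II and group III receptors act through Gi/o proteins and lower cyclic AMP. Group III receptors are best known as presynaptic brakes on transmitter release, Grm2 and Grm3 sit on axons and dendrites, and Grm3 and Grm5 are the family members classically described in astrocytes.

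The study measured messenger RNA bound to ribosomes in genetically chosen cells. In translating ribosome affinity purification (TRAP), the regulatory region of a driver gene, carried on a bacterial artificial chromosome, directs a ribosomal protein with a tag to chosen cells, and their ribosomes are pulled from the tissue together with the RNA on them. RNA left behind, the unbound fraction, was the reference for each tissue. All groups came from such transgenic mice, and the labels used here give no age, sex, strain or number of animals per array.

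The 76 TRAP arrays formed 24 populations with 3 arrays each, except cortical astrocytes with 4 and Purkinje neurons with 6. In the cortex the drivers were cck, cort and pnoc for the populations named Cck+, Cort+ and Pnoc+, glt25d2 for layer 5b (line DU9), ntsr1 for layer 6 (TS16), aldh1l1 for astrocytes (JD130 and JD133), olig2 for mixed oligodendroglia (JD97) and cmtm5 for mature oligodendrocytes (JD307); layer 5a neurons came from line TS88. In the striatum, drd1 (CP73) and drd2 (CP101) marked medium spiny neurons. The chat line DW167 gave cholinergic neurons of the striatum, basal forebrain and spinal cord and motor neurons of the brainstem. In the cerebellum the drivers were grm2 for Golgi neurons (JP77), grp for unipolar brush neurons (JP25), lypd6 for stellate and basket neurons (JP48), pcp2 for Purkinje neurons (DR166 and DR168), neurod1 for granule neurons (JP241), septin4 for Bergmann glia (DS152), aldh1l1 for astrocytes (JD130), olig2 for mixed oligodendroglia (JD97) and cmtm5 for mature oligodendrocytes (JD307). All but the astrocytes of the cortex and the Purkinje neurons rest on a single transgenic line. The 31 unbound arrays comprised 9 from cortex, 7 from cerebellum, 6 from striatum and 3 each from basal forebrain, brainstem and spinal cord.

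Levels are log2 intensities after the group's mean over 18 biotinylated control probe sets was set equal between groups. A difference is TRAP minus unbound RNA unless 2 populations are named, an SD is over the arrays of a group, and an SE and adjusted p come from a single limma fit over all arrays with Benjamini-Hochberg adjustment over the genes tested. A gene was tested where a compared group averaged at least 6 (an intensity of 64), and was called at an adjusted p below 0.05 with at least a 2-fold difference. If all groups of 1 side averaged under 6, a gene was tested only through the other side. The minimum then favoured that side in advance, and an adjusted p there is description only. Where the lower side, or a population within its mean, averaged under 6, the fold is given as "at least", with each such mean set to 6. In 51 of 180 combinations of gene and group every array held the same value, which the background step of the authors' normalization can give to dim probe sets, so a small SD there is no measure of precision. Each group was normalized on its own by the authors, so a difference between groups and a difference between normalizations cannot be told apart. Of the 153 differences called among the 6 genes, 87 moved by more than 1.5-fold after quantile normalization and 21 without the scaling on controls; such values stand beside the main results. In TRAP RNA, fewer labelled cells and less RNA per cell cannot be told apart either.

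Population markers were mostly where the labels place them. All 8 astrocyte markers were above unbound RNA in the cortical and in the cerebellar astrocytes, all 6 oligodendrocyte markers in the 4 oligodendroglial populations, and all 4 Purkinje markers in Purkinje neurons. These counts include Aldh1l1 and Pcp2, the drivers of the astrocyte and Purkinje lines, by which those cells were labelled. Chat, the driver of the cholinergic lines, read 2.13 to 2.73 in their TRAP arrays, under the minimum, while the other 2 cholinergic markers were above 6. In Cck+ neurons none of 6 cortical interneuron markers was above unbound cortex, and all 3 measured markers of cortical glutamatergic neurons were. In layer 5a arrays, 8 of 8 astrocyte markers and 6 of 6 microglial markers were above unbound cortex, the microglial markers with a summed log2 level of 13.45 to 14.82, against 9.40 to 12.17 in unbound cortex; their part in the layer 5a values was not tested.

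Promoters matched for 4 of the 6 genes. Those of the 2 group II receptors are shown because these close relatives had different patterns in glia and in cerebellar neurons. RefSeq (GRCm38.p6) places the Grm2 promoter at chr9:106656110-106656359 and the Grm3 promoter at chr5:9725353-9725602, both on the minus strand. Each line holds the 250 bases before the gene's start, 5′ to 3′ along the gene, with capitals for every GGGCGG, the GC box bound by Sp1-type factors, searched on both strands.
Grm2: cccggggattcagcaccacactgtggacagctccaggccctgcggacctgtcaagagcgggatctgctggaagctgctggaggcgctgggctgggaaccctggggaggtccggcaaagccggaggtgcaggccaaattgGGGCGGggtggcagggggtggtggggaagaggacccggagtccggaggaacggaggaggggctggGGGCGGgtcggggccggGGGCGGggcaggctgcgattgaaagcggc
Grm3: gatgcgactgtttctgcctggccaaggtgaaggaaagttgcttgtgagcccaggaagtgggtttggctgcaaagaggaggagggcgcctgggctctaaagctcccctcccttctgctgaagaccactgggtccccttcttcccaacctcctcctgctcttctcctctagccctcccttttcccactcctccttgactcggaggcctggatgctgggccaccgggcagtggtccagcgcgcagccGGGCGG
The Grm2 stretch is 71.2% G and C with 3 GC boxes, at 111, 46 and 29 bases before the start; the Grm3 stretch is 62.4% G and C with 1, ending at the base before the start. The median over 32851 RefSeq promoters of this length is 52.4% G and C, and 32.7% of them hold a GC box. Neither stretch holds TATAAA, present in 12.4% of promoters, the cyclic AMP element TGACGTCA, present in 1.5%, or the E-box CANNTG, present in 66.2%. CCAAT, present in 33.8%, occurs once in Grm2 and not in Grm3. These matches describe the letters in the window and nothing about binding.

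**Figure D1:**
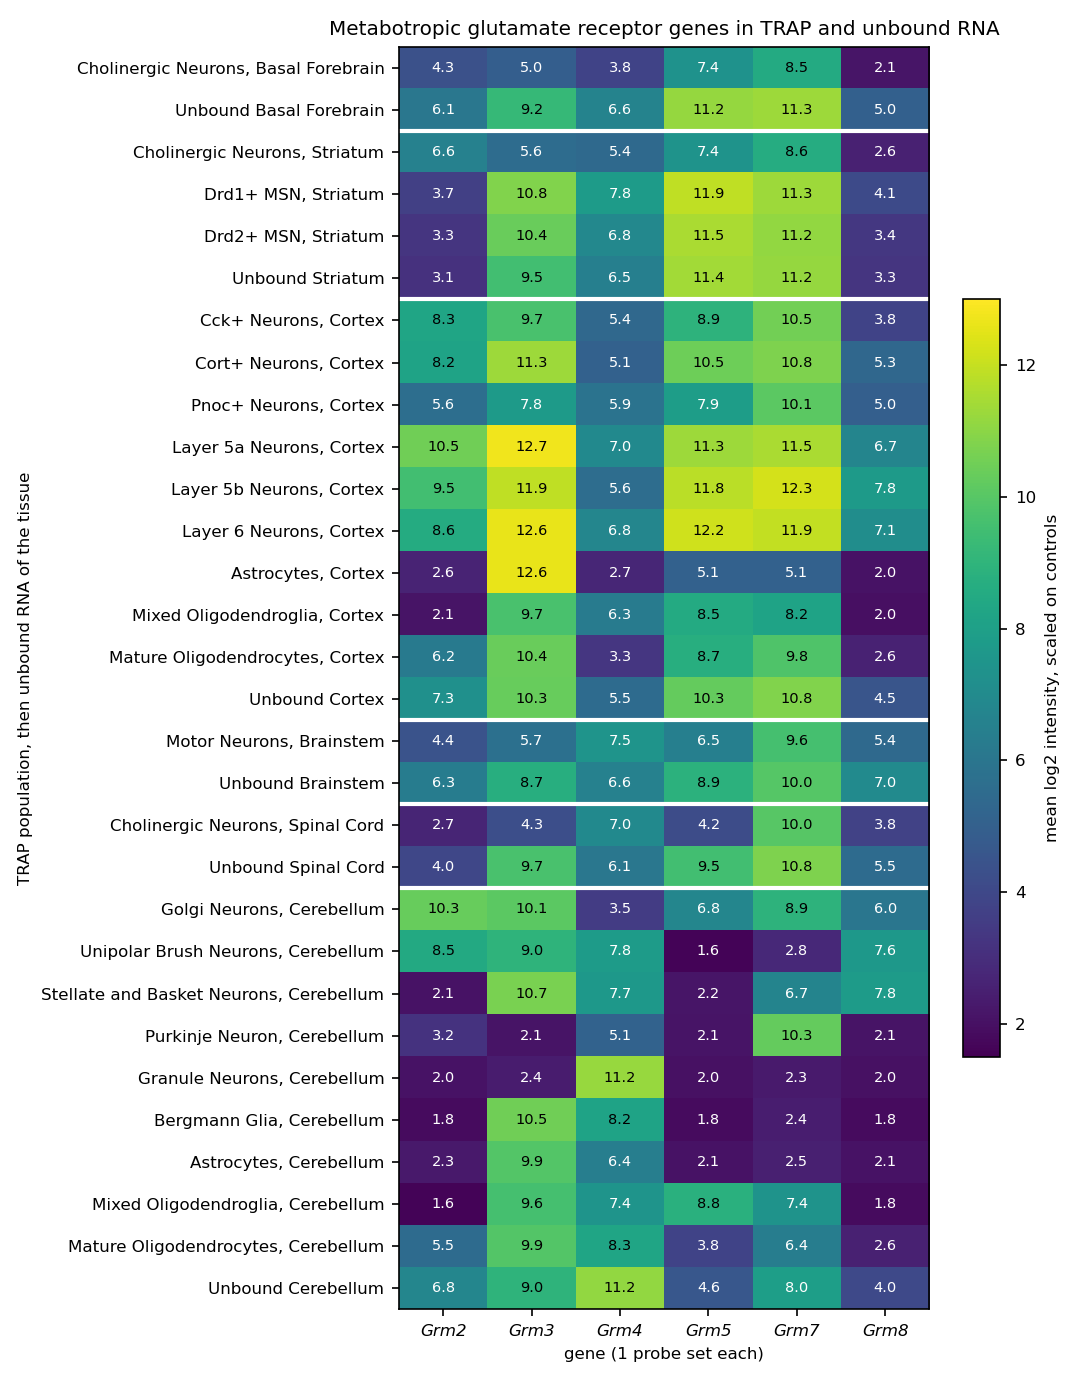
Mean log2 intensity, scaled on controls, of the 6 receptor genes (columns) in each TRAP population and, below the populations of a tissue, its unbound RNA (rows). Colour and printed value give the group mean. Grm3 was at 6 or more in 18 of the 24 TRAP populations and Grm8 in 6. Levels of different genes are not comparable. Down a column, a difference between groups cannot be told apart from a difference between their normalizations.

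Over the 24 comparisons of a TRAP population with its tissue, 111 of 144 gene tests had enough signal, and 32 were called higher in TRAP RNA and 50 lower. Over all genes tested in these comparisons 18.4% were called higher and 32.4% lower (50.8% in all), so calls as such were common. Of the 32 higher calls 11 had an unbound mean under 6, and 26 kept at least a 2-fold difference when that mean was set to 6. Of the 50 lower calls 30 had a TRAP mean under 6, and 39 kept at least a 2-fold difference when that mean was set to 6. Arrays of the compared groups did not overlap in 30 of the 32 higher and in all 50 lower calls. That share was not computed over all called genes, so these counts have no background and are description only. By gene, Grm3 was higher in 9 of 24 tested populations, Grm2 in 6 of 21, Grm8 in 6 of 7, Grm5 in 5 of 17, Grm4 in 3 of 18 and Grm7 in 3 of 24. Where unbound RNA averaged under 6, as for Grm8 in all tissues but brainstem, a test needed a TRAP mean of at least 6. The direction was then fixed by the minimum, so these counts are not shares of enriched populations. In the 22 comparisons between populations, 84 tests gave 22 higher and 36 lower calls, beside 19.6% higher and 23% lower (42.5% in all) among all genes.

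Grm5 encodes the group I receptor of forebrain neurons, which couples to Gq and is tied to the postsynaptic scaffold by Homer proteins. It was high in deep cortical layers and medium spiny neurons, low in cholinergic neurons and cortical astrocytes, and in the cerebellum it was at 6 or more only in mixed oligodendroglia and Golgi neurons. Layer 6 arrays read 11.73, 12.40 and 12.33 and layer 5b arrays 11.93, 11.81 and 11.74, against 9.62 to 10.92 with a median of 10.44 in unbound cortex. All 6 of these TRAP arrays lay above all 9 unbound arrays. Grm5 rose by 1.88 ± 0.25 in layer 6 (SE, adjusted p = 2.6e-10, 3.68-fold) and by 1.55 ± 0.25 in layer 5b (adjusted p = 5.1e-08, 2.93-fold). On the mean of the gene's 2 probe sets these calls ended, at 0.97 and 0.95. The layer 5a call, a difference of 1.03 ± 0.25 (adjusted p = 0.00011), stood at -0.09 after quantile normalization, at 0.52 without further scaling, at 0.72 on the mean of the gene's probe sets, and at 0.99 and 0.95 without layer 5a replicates 1 and 3. Over all genes, 60.7% were called higher in layer 5a, 36.7% in layer 5b and 30.8% in layer 6.

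In the striatum Grm5 separated cholinergic interneurons from medium spiny neurons. Striatal cholinergic arrays read 7.49, 7.26 and 7.49, against 11.87, 11.92 and 11.87 in Drd1+ and 11.33, 11.66 and 11.63 in Drd2+ medium spiny neurons. No arrays overlapped, and the difference from the mean of both medium spiny populations was -4.30 ± 0.26 (SE, adjusted p = 5.9e-27), a 19.7-fold lower level. Without further scaling the difference was -3.53. On the gene's second probe set, not used for the tests, striatal cholinergic neurons averaged 6.49, against 8.73 in Drd1+ and 8.18 in Drd2+ neurons. That is a smaller difference in the same direction. Of the 5 genes tested in this comparison Grm3, Grm4 and Grm7 were lower too and Grm2 was higher, beside 39.6% lower and 21.3% higher among all genes. Medium spiny neurons and unbound striatum did not separate: Drd1+ differed by 0.50 ± 0.26 (adjusted p = 0.084) and Drd2+ by 0.15 ± 0.26 (adjusted p = 0.63). Drd1+ minus Drd2+ was 0.34 ± 0.30 (adjusted p = 0.4). Each chat-line population was also lower than its tissue: the difference was -3.97 ± 0.26 in striatum (15.7-fold), -5.38 ± 0.30 in spinal cord (at least 11.6-fold), -3.78 ± 0.30 in basal forebrain (13.7-fold) and -2.42 ± 0.30 in brainstem motor neurons (5.35-fold). The shares of all genes called lower were 30.9%, 53.4%, 41.4% and 32.3% in these comparisons.

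Parts of the group I pathway differed between the same striatal cells. Among 7 tested of 9 measured genes for Gq signalling and Homer scaffolds, 1 was higher and 3 lower in cholinergic neurons, with a median difference of -0.97 beside -0.51 over all genes tested. Homer1, a scaffold that binds Grm5, averaged 9.42 ± 0.15 in cholinergic and 13.53 in medium spiny neurons (difference -4.11 ± 0.22, SE, adjusted p = 1.6e-30). Plcb1, a phospholipase C that Gq activates, averaged 9.14 ± 0.02 and 13.69 (difference -4.56 ± 0.33), and Ncdn, the neurochondrin that binds the group I receptor's tail, differed by -1.01 ± 0.26, a call that ended without further scaling (-0.24). Plcb4, another Gq-activated phospholipase, was higher in cholinergic neurons at 11.72, against 9.67 in medium spiny neurons.

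In the cerebellum Grm5 distinguished the 2 oligodendroglial populations. Mixed oligodendroglia read 8.86, 8.90 and 8.62, against 3.77, 3.99 and 3.72 in mature oligodendrocytes, and unbound cerebellum ran from 4.14 to 6.03 with a median of 4.38. The mixed arrays lay above all others. Mature oligodendrocytes and unbound cerebellum averaged under 6, so Grm5 was tested only through the mixed mean. That fixed the higher direction in advance. Grm5 was at least 6.93-fold higher in mixed oligodendroglia than in mature oligodendrocytes (log2 difference 4.97 ± 0.30, SE, adjusted p = 1.8e-26) and than in unbound cerebellum (4.18 ± 0.26, adjusted p = 8.3e-27; 5.14 after quantile normalization and 5.06 without further scaling); 44.4% and 17.8% of all genes were called higher in these comparisons. In the cortex mixed oligodendroglia averaged 8.54 ± 0.46 and mature oligodendrocytes 8.70 ± 0.42, both below unbound cortex at 10.27 ± 0.50 (differences of -1.73 and -1.58, where 20.6% and 32.8% of all genes were called lower). The mixed-minus-mature difference of cortex minus that of cerebellum was -5.12 ± 0.43 (adjusted p = 3.8e-18), beside 37% of all genes called in that test. Its cerebellar term uses a mature mean under 6, so the value gives no measured size. Progenitor markers, among them Olig2, the driver of the mixed line, had a higher summed level in mixed oligodendroglia than in mature oligodendrocytes in both tissues. As the sum holds the gene by which the mixed cells were labelled, it is given as a description. In cerebellum 5 of 5 were at 6 or more in mixed oligodendroglia, with a summed log2 level of 15.60 to 15.91. In mature oligodendrocytes there it was 4 of 5 and 14.72 to 15.10, with Cspg4 under 6. In cortex all 5 were at 6 or more in both, at 16.07 to 16.14 in mixed oligodendroglia and 14.93 to 15.24 in mature oligodendrocytes. Their part in the Grm5 result was not tested.

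Golgi neurons were the only cerebellar neurons with Grm5 at 6 or more, reading 6.58, 6.93 and 6.84, against 2.17 in every stellate and basket array and 1.62 to 2.10 in the means of the other cerebellar neurons. The fold over stellate and basket neurons was at least 1.72, where 8.67% of all genes were called higher. The second Grm5 probe set, not used for the tests, read 3.88 in Golgi neurons and so did not show this. It did show cerebellar mixed oligodendroglia (6.51) above mature oligodendrocytes (4.25) and unbound cerebellum (2.61), and it read 8.73 in Drd1+ and 8.18 in Drd2+ neurons, against 9.68 in unbound striatum. On that probe set Pnoc+ neurons read 10.60 beside 10.16 in unbound cortex, whereas the tested probe set read 7.92, 7.92 and 7.86 in Pnoc+ neurons and was called 5.18-fold lower (difference -2.37 ± 0.25, and -1.14 after quantile normalization; 58.1% of all genes were called lower); on the mean of the gene's probe sets the difference was -0.97 and the call ended. Cck+ neurons read 8.93, 8.98 and 8.93 and were called 2.51-fold lower than unbound cortex (-1.33 ± 0.25; 22.8% of all genes were called lower), but not against their own line's unbound array alone (-0.67, adjusted p = 0.18). Probe sets of a gene can lie in different parts of its transcripts, and which parts these 2 cover was not analysed here.

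Cortical astrocytes carried little Grm5, the group I receptor long described in young astrocytes. Their arrays read 4.68, 4.78, 4.73 and 6.04, against a lowest unbound cortex array of 9.62. The difference was -5.22 ± 0.22 (SE, adjusted p = 1.3e-37), at least 19.4-fold lower. All 3 measured markers of cortical glutamatergic neurons were under 6 in these astrocyte arrays, with a summed level of 4.74 to 6.50, against 10.65 to 12.34 in unbound cortex. Cerebellar astrocytes and Bergmann glia read 2.07 and 1.82 in every array.

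**Figure D2:**
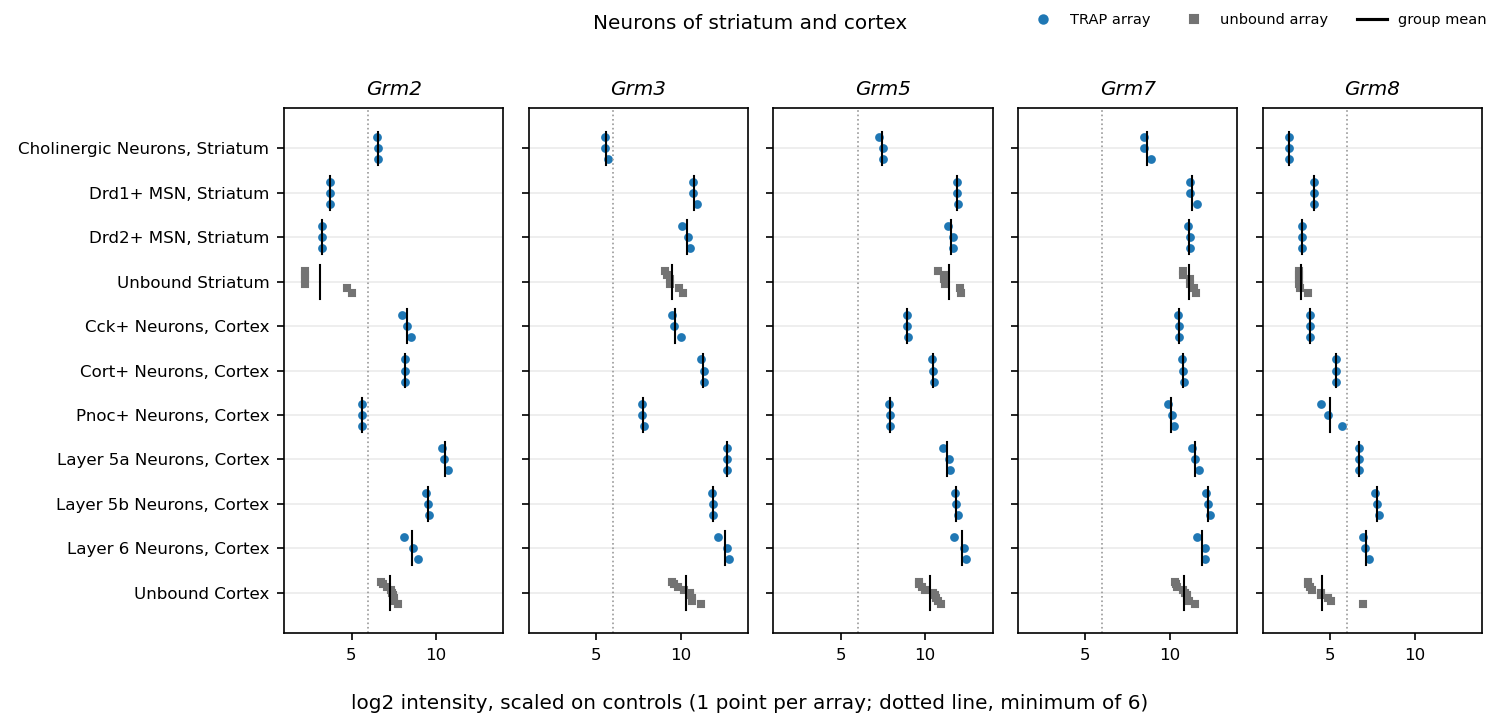
Log2 intensity, scaled on controls (horizontal axes), of 5 receptor genes in neurons of striatum and cortex, with 1 point per array, circles for TRAP, squares for unbound RNA, vertical bars for group means and a dotted line at the minimum of 6. Striatal cholinergic arrays lie at 7.26 to 7.49 for Grm5 while both medium spiny populations lie at 11.33 to 11.92; Grm2 is at 6 or more in deep layers and under 6 in medium spiny neurons.

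Grm2 encodes a Gi/o-coupled group II receptor found on axons of cortical and thalamic neurons and on cerebellar Golgi neurons. It was highest in layer 5a and Golgi neurons, then in layers 5b and 6, unipolar brush neurons, Cck+ and Cort+ neurons, and lay under 6 in astrocytes, Bergmann glia, mixed oligodendroglia, granule, Purkinje, stellate and basket and medium spiny neurons. Mature oligodendrocytes averaged 6.25 ± 0.14 in cortex and 5.52 ± 0.26 in cerebellum, against 7.29 and 6.77 in the unbound tissues. Layer 5a arrays read 10.70, 10.49 and 10.37, layer 5b arrays 9.41, 9.56 and 9.59 and layer 6 arrays 8.96, 8.62 and 8.09, against 6.76 to 7.73 with a median of 7.39 in unbound cortex. Every deep-layer array was above every unbound array. The folds over unbound cortex were 9.4 in layer 5a (difference 3.23 ± 0.25, SE, adjusted p = 3.1e-21), 4.7 in layer 5b (2.23 ± 0.25, adjusted p = 3.2e-13) and 2.41 in layer 6 (1.27 ± 0.25, adjusted p = 5.2e-06). After quantile normalization the layer 5a difference was 2.17, and the layer 6 call ended, at 0.78.

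Between neighbouring layers the steps on the control scale were at the edge of the 2-fold rule. Layer 5a minus layer 5b was 1.00 ± 0.30 (SE, adjusted p = 0.0036) and layer 5b minus layer 6 was 0.96 ± 0.30 (adjusted p = 0.0088). Neither was called, and leaving out 1 array moved them between 0.91 and 1.07 and between 0.73 and 1.16, across the rule in 4 and 2 of 6 cases. The median difference over all genes tested was 0.60 for layer 5a minus layer 5b and 0.11 for layer 5b minus layer 6. After quantile normalization Grm2 averaged 9.46 in layer 5a, 8.95 in layer 5b and 8.07 in layer 6. Cck+ neurons (8.50, 8.28 and 8.02) and Cort+ neurons (8.17 in every array) differed by 0.09 ± 0.30 (adjusted p = 0.81). Their differences from unbound cortex, 0.98 ± 0.25 and 0.88 ± 0.25, were under 2-fold. Pnoc+ neurons read 5.64 in every array, and Cort+ neurons exceeded them at least 4.51-fold (2.53 ± 0.30, adjusted p = 2.6e-12; 1.01 after quantile normalization), where 66.8% of all genes were called higher. The lower Pnoc+ value relative to unbound cortex, a difference of -1.64, was -0.26 and not called after quantile normalization.

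Golgi neurons read 10.33, 10.33 and 10.37, against 2.07 in every stellate and basket array and 6.70 to 7.19 with a median of 6.70 in unbound cerebellum. The level was at least 20.3-fold higher than in stellate and basket neurons (8.28 ± 0.30, SE) and 11.9-fold higher than in unbound cerebellum (3.57 ± 0.25). After quantile normalization the difference from unbound cerebellum was 5.56. Only 4.41% of all genes were called higher in Golgi than in unbound RNA and 70.4% were lower, with a median difference of -1.96 over the genes tested. The Golgi line is driven by the regulatory region of Grm2, so this enrichment is the property by which the cells were labelled and is given as a description. Slc6a5, the glycine transporter of Golgi neurons, averaged 10.96 ± 0.30 and Gad1, a GABA-synthesizing enzyme, 14.60 ± 0.26 in the same arrays.

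Unipolar brush neurons, glutamatergic interneurons of the granular layer, also carried Grm2. Their arrays read 8.48, 8.35 and 8.59, against 2.04 in every granule array, at least 5.56-fold higher (6.43 ± 0.30, SE, adjusted p = 2.2e-34), and they were 3.26-fold above unbound cerebellum (1.70 ± 0.25, adjusted p = 6.5e-09; 2.70 after quantile normalization and 2.57 without further scaling). Granule neurons averaged under 6, so Grm2 was tested against them only through the unipolar brush mean, which fixed the direction in advance. The shares of all genes called higher were 32.5% against granule neurons and 12.2% against unbound cerebellum. Homer2, a group I scaffold, was also higher than in granule neurons (11.05 against 2.11), as was Slc17a6, a vesicular glutamate transporter (9.33 ± 0.19 against 3.62). Slc1a3, the glial glutamate transporter, was higher too, at 12.89 against 6.64, and 8 of 8 astrocyte markers were at 6 or more in unipolar brush arrays, with a summed level of 16.29 to 16.39, against 15.88 to 16.57 in unbound cerebellum. Their part in the receptor values was not tested.

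Striatal cholinergic neurons read 6.59, 6.53 and 6.58 for Grm2, just above the minimum. Medium spiny neurons read 3.70 in every Drd1+ and 3.27 in every Drd2+ array. Unbound striatum held 5.00 and 4.71 in the arrays of the cholinergic line and 2.27 in all 4 arrays of the medium spiny lines. Medium spiny neurons and unbound striatum averaged under 6, so Grm2 was tested only through the cholinergic mean. That fixed the higher direction in advance. The fold was at least 1.48 over both (3.08 ± 0.26 over medium spiny neurons, SE, adjusted p = 5.5e-19, and 4.14 after quantile normalization; 3.43 ± 0.26 over unbound striatum, where 23.3% of all genes were called higher). Basal forebrain cholinergic neurons averaged 4.33 ± 0.06 and were at least 1.48-fold lower than striatal ones, where 14.3% of all genes were called lower. Medium spiny neurons lay at least 11.6-fold below the mean of the 3 deep cortical layers (-6.05 ± 0.19, adjusted p = 5.5e-46; -7.13 without further scaling), where 26.6% of all genes were called lower.

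Grm3 encodes the group II receptor that is common in astrocytes and that the peptide NAAG activates. It was at 6 or more in 18 of 24 populations, spanning astroglia, oligodendroglia and neurons. The 6 populations under 6 were the 4 from the chat line, granule neurons and Purkinje neurons. Cortical astrocytes read 13.32 and 12.32 in line JD130 and 13.25 and 11.57 in line JD133, against 9.49 to 11.24 with a median of 10.54 in unbound cortex. Arrays of the same line lay apart by more than the 2 line means, and none overlapped the unbound arrays. Grm3 rose 4.92-fold there (2.30 ± 0.19, SE, adjusted p = 1.9e-19).

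Cerebellar astroglia had less. Cerebellar astrocytes read 9.96, 9.82 and 9.99 and Bergmann glia, the radial astroglia of the Purkinje cell layer, 10.57, 10.41 and 10.57, against 8.55 to 9.41 with a median of 9.01 in unbound cerebellum. Bergmann glia were called 2.92-fold higher than unbound cerebellum (1.55 ± 0.22, SE, adjusted p = 1.2e-09), where 19.6% of all genes were called higher; the difference was 2.13 after quantile normalization and 2.17 without further scaling. Cerebellar astrocytes differed by 0.96 ± 0.22, just under 2-fold, and was called after quantile normalization (1.98) and without further scaling (1.36). Cortical astrocytes exceeded cerebellar astrocytes 6.47-fold (2.69 ± 0.24, adjusted p = 6e-17), where 17% of all genes were called higher. The enrichment over unbound tissue was larger in cortex than in cerebellum by 1.34 ± 0.29 (adjusted p = 2.9e-05), beside 61.2% of all genes called in that test. Bergmann glia minus cerebellar astrocytes was 0.59 ± 0.26 (adjusted p = 0.066).

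Deep cortical neurons also had high Grm3. Layer 5a arrays held 12.75, 12.74 and 12.74, layer 6 arrays 12.19, 12.89 and 12.76 and layer 5b arrays 11.95, 11.84 and 11.93, all above the 9 unbound arrays. The folds over unbound cortex were 5.37 (2.43 ± 0.21), 4.91 (2.30 ± 0.21) and 3.01 (1.59 ± 0.21). After quantile normalization the layer 5a difference was 1.52. Astrocyte markers were given beside them because Grm3 is astrocytic: their summed level was 16.28 to 16.54 in layer 5a, 14.93 to 15.47 in layer 6 and 15.21 to 15.40 in layer 5b, against 14.19 to 15.13 in unbound cortex and 17.08 to 17.32 in cortical astrocytes. The median marker differed from unbound cortex by 2.37 in layer 5a, 0.51 in layer 6 and -0.15 in layer 5b. Their part in the layer values was not tested. Cort+ neurons read 11.38, 11.24 and 11.39 and were called 2.03-fold higher (12.9% of all genes were), a call that ended without further scaling (0.89), after quantile normalization (0.87) and without Cort+ replicate 1 (1.00) or 3 (0.99). Pnoc+ neurons read 7.71, 7.85 and 7.71, 5.92-fold below unbound cortex (-2.56 ± 0.21, adjusted p = 2.3e-19; -1.32 after quantile normalization).

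Among cerebellar neurons Grm3 was highest in the inhibitory interneurons. Stellate and basket arrays read 10.73, 10.73 and 10.59 and Golgi arrays 9.90, 10.47 and 9.96, against 2.37 in every granule array and 2.11 to 2.22 with a median of 2.11 in Purkinje neurons. Stellate and basket neurons were 3.28-fold (1.72 ± 0.22, SE, adjusted p = 6.1e-11) and Golgi neurons 2.2-fold (1.14 ± 0.22, adjusted p = 2.1e-06) above unbound cerebellum. The Golgi call ended without Golgi replicate 2, at 0.96, and the Golgi difference was 2.88 after quantile normalization and 1.45 without further scaling. That of stellate and basket neurons was 2.43 after quantile normalization. Over all genes 9.29% were called higher in stellate and basket neurons. In Golgi arrays 5 of 8 astrocyte markers were under 6 (Aldh1l1, Aqp4, Slc1a2, Slc1a3 and Gfap), and the summed level was 11.76 to 12.10, against 15.88 to 16.57 in unbound cerebellum; in stellate and basket arrays it was 15.07 to 15.17. Purkinje neurons (-6.84 ± 0.18, and -5.87 after quantile normalization) and granule neurons (-6.60 ± 0.22, and -4.93 after it) were each at least 7.83-fold below unbound cerebellum, where 49.2% and 38% of all genes were called lower. Unipolar brush neurons, averaging 8.97 ± 0.04, did not separate from it (0.01 ± 0.22, adjusted p = 0.98).

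The chat-line populations were uniformly low for Grm3. Brainstem motor neurons read 5.74 in every array, striatal cholinergic neurons 5.51, 5.51 and 5.71, basal forebrain neurons 4.94 to 4.97 and spinal neurons 4.25 to 4.28, while their unbound tissues averaged 8.71, 9.52, 9.19 and 9.68. The folds were at least 6.56, 11.4, 9.15 and 12.8, each lower in TRAP RNA. Against medium spiny neurons (10.82 ± 0.12 in Drd1+, 10.37 ± 0.26 in Drd2+), striatal cholinergic neurons were at least 24.2-fold lower (-5.02 ± 0.23, adjusted p = 9.7e-36; -4.31 after quantile normalization and -4.25 without further scaling). The Drd1+ population was called 2.48-fold above unbound striatum (1.31 ± 0.23; 29.8% of all genes were called higher), a call that ended after quantile normalization (0.82) and without further scaling (0.05), and Drd1+ arrays had the lowest control mean of all groups before scaling, 10.13.

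The 4 oligodendroglial populations held Grm3 well above the minimum. Mixed oligodendroglia averaged 9.70 ± 0.20 in cortex and 9.62 ± 0.05 in cerebellum, and mature oligodendrocytes 10.36 ± 0.33 and 9.91 ± 0.25. None of the 4 was called against unbound RNA, and both cerebellar populations were called under another scaling. Cerebellar mixed oligodendroglia stood at 0.65 ± 0.22, at 1.52 without further scaling and at 1.33 after quantile normalization. The cerebellar mature population stood at 0.94 ± 0.22, and reached 2-fold without its replicate 2 or 3 (1.01 each), against its own line's unbound array (1.36), without further scaling (1.23) and after quantile normalization (2.03).

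Genes of glutamate clearance and of Gi/o signalling were recorded beside the astrocyte result. In cortical astrocytes 3 of 6 tested genes of glutamate release and uptake were higher and 3 lower than in unbound cortex (median -1.80, beside 0.11 over all genes; 33.1% of all genes were called higher and 31.5% lower). Higher were Slc1a3 (13.34 ± 0.14 against 8.90 ± 0.51) and Slc1a2 (14.14 ± 0.29 against 12.29 ± 0.30), the glial glutamate transporters, and Glul, glutamine synthetase (14.66 ± 0.10 against 12.96 ± 0.54). Lower were the vesicular transporters Slc17a6 and Slc17a7 and the neuronal transporter Slc1a1. Of 13 tested genes for Gi/o proteins and receptor partners 2 were higher, Gnai2 (13.59 against 10.20) and Gnai3 (11.32 against 9.52), and 8 were lower, Gnai1 among them (10.50 against 14.09). Rimkla and Rimklb, the enzymes that make NAAG, were both lower, at 4.02 and 6.98 in astrocytes, against 7.35 and 8.54 in unbound cortex.

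**Figure D3:**
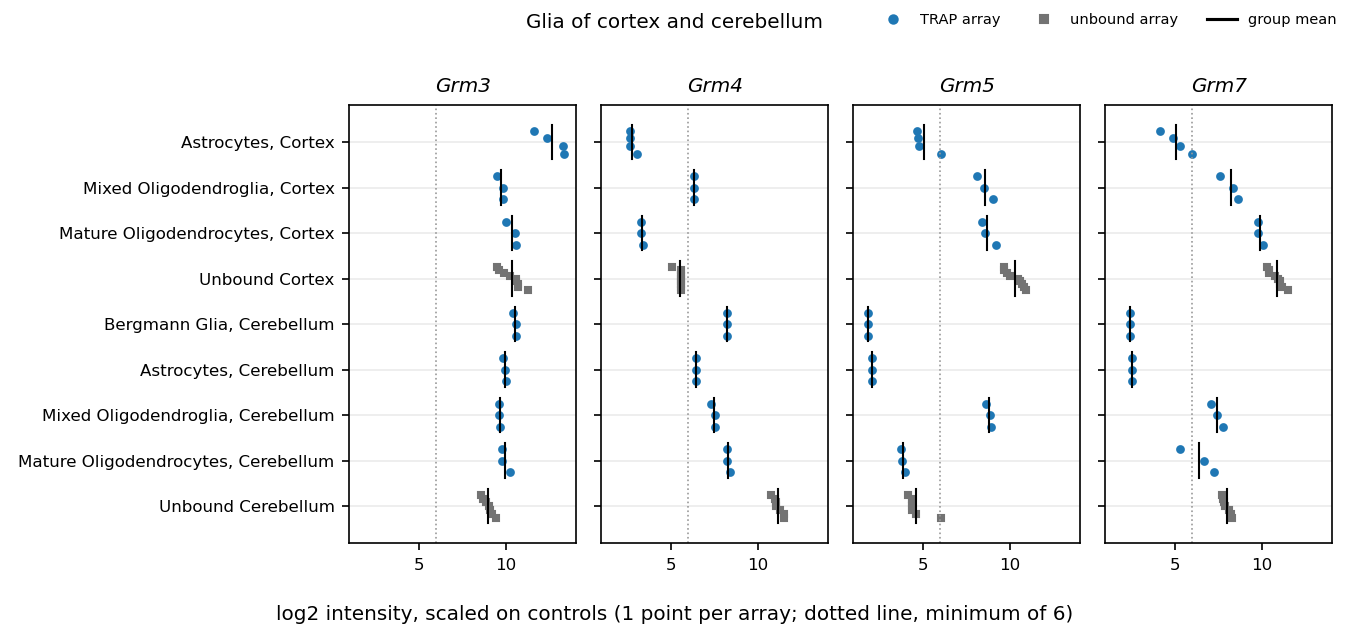
Log2 intensity, scaled on controls (horizontal axes), of 4 receptor genes in glial populations of cortex and cerebellum and in unbound RNA, with 1 point per array, bars for group means and a dotted line at 6. Cortical astrocytes lie at 11.57 to 13.32 for Grm3 and at 4.11 to 6.04 for Grm5 and Grm7; for Grm5 only mixed oligodendroglia are above 6 among cerebellar glia.

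Grm4 encodes the group III receptor on granule neuron axons, the parallel fibres that contact Purkinje neurons. It was highest in granule neurons, with arrays at 10.90, 11.14 and 11.66, and unbound cerebellum read 10.75 to 11.51 with a median of 11.04. The 2 groups overlapped and differed by 0.08 ± 0.13 (SE, adjusted p = 0.58). Every other cerebellar population was called lower than unbound cerebellum, with differences between -2.89 (mature oligodendrocytes) and -7.61 (Golgi neurons). The share of all genes called lower was 53.2% in mature oligodendrocytes, 48.6% in astrocytes, 39.5% in Bergmann glia, 39.1% in mixed oligodendroglia, 38.4% in stellate and basket neurons and 37.5% in unipolar brush neurons. Golgi neurons read 3.54 in every array and Purkinje neurons 5.13 to 5.15 with a median of 5.14, each at least 35.5-fold lower than unbound cerebellum; their differences of -7.61 and -6.01 were -5.33 and -4.31 after quantile normalization. Granule neurons exceeded the mean of the other 4 cerebellar neurons at least 20.6-fold (5.20 ± 0.12, adjusted p = 1.4e-56; 4.35 after quantile normalization), where 17.5% of all genes were called higher.

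The remaining cerebellar populations held intermediate Grm4 values. Mature oligodendrocytes averaged 8.26 ± 0.10, Bergmann glia 8.19 in every array, unipolar brush neurons 7.81 in every array, stellate and basket neurons 7.65 ± 0.09, mixed oligodendroglia 7.44 ± 0.13 and astrocytes 6.41 in every array. Markers of granule neurons were present there as well. All 4 were at 6 or more in each of these 6 populations, and none was above unbound cerebellum in any of them. Their summed level was 14.77 to 15.81 in mature oligodendrocytes, 14.50 to 14.76 in Bergmann glia, 14.87 to 15.06 in unipolar brush neurons, 13.89 to 14.79 in stellate and basket neurons, 13.34 to 13.54 in mixed oligodendroglia and 12.97 to 13.08 in astrocytes, against 16.56 to 17.12 in unbound cerebellum and 16.74 to 16.87 in granule neurons. Their part in the Grm4 values was not tested.

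Outside the cerebellum TRAP means for Grm4 ran from 2.75 in cortical astrocytes to 7.80 in Drd1+ medium spiny neurons. Drd1+ medium spiny neurons read 8.24, 7.77 and 7.39 and Drd2+ neurons 6.99, 6.78 and 6.78, against 6.14 to 6.93 with a median of 6.31 in unbound striatum. Drd1+ was called 2.51-fold above unbound striatum (1.33 ± 0.13, SE, adjusted p = 1.4e-14), and the call ended after quantile normalization (0.91) and without further scaling (0.07). Drd1+ minus Drd2+ was 0.95 ± 0.15 (adjusted p = 6.5e-07), under 2-fold, and reached 1.16 without Drd1+ replicate 3 and 1.02 without Drd2+ replicate 1. Layer 5a (6.98 in every array) and layer 6 (6.66, 6.89 and 6.77) were called above unbound cortex (5.05 to 5.57, median 5.57), at least 1.97-fold and 1.71-fold. The layer 5a difference was 0.21 after quantile normalization and 0.95 without further scaling, and the layer 6 difference 0.94 after quantile normalization, none of them called. In the chat line, brainstem motor neurons read 7.47 in every array, against 6.56 ± 0.02 in unbound brainstem, and spinal cholinergic neurons read 7.04, 6.85 and 7.04, against 6.24, 5.96 and 5.96 in unbound spinal cord. Neither pair of groups overlapped, and the differences of 0.91 ± 0.15 (adjusted p = 3e-07) and 0.92 ± 0.15 (adjusted p = 1.4e-07) were under 2-fold. The motor neuron difference was called after quantile normalization (2.00) and without further scaling (1.01), and the spinal one after quantile normalization (3.12) and without unbound spinal cord replicate 1 (1.02). Cortical astrocytes read 2.64 to 3.04, and cortical mature oligodendrocytes 3.28, 3.42 and 3.28.

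Grm7 encodes the group III receptor of presynaptic active zones and binds the PDZ protein Pick1. It was at 6 or more in 19 of 24 populations and highest in the deep layers, and it was called higher than unbound RNA in 3: Purkinje neurons and layers 5b and 6. These results rest on 1 of the gene's 3 probe sets. The other 2 were under 6 in every group, with highest group means of 5.13 and 3.54. Purkinje arrays ranged from 9.77 to 10.69 with a median of 10.24, against 7.71 to 8.28 with a median of 7.88 in unbound cerebellum. The groups did not overlap, and the difference was 2.33 ± 0.19 (SE, adjusted p = 9.7e-20), 5.02-fold, where 14% of all genes were called higher; it was 3.24 after quantile normalization. It was called with either of the lines DR166 and DR168 alone.

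Within the cerebellum Grm7 set Purkinje and Golgi neurons apart from granule-layer glutamatergic neurons. Granule neurons read 2.29, 2.34 and 2.29 and unipolar brush neurons 2.83 in every array, stellate and basket neurons 6.66, 6.66 and 6.74, and Golgi neurons 8.66, 9.32 and 8.76. Purkinje neurons exceeded the mean of the other 4 neurons at least 10.4-fold (5.10 ± 0.17, SE, adjusted p = 1.6e-44; 4.43 after quantile normalization) and Golgi neurons exceeded stellate and basket neurons 4.68-fold (2.23 ± 0.28, adjusted p = 3.5e-11; 3.30 after quantile normalization). Golgi minus unbound cerebellum was 0.96 ± 0.24, under 2-fold, and was called after quantile normalization (2.96), without further scaling (1.27) and without Golgi replicate 1 (1.08) or 3 (1.03). Stellate and basket neurons were called 2.41-fold lower than unbound cerebellum (-1.27 ± 0.24), a call that ended after quantile normalization (-0.34) and without further scaling (-0.85). Bergmann glia (2.44) and cerebellar astrocytes (2.52) were each at least 3.88-fold lower.

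Partner genes were recorded in Purkinje neurons, set against the mean of the other 4 cerebellar neurons. Of 11 tested genes for Gi/o proteins and receptor partners 3 were higher and none lower (median 0.52, beside 0.14 over all genes; 24.8% of all genes were called higher and 26.5% lower). They were Grip1, a PDZ scaffold (7.36 ± 0.52 against 3.09), Gnao1 (12.44 ± 0.20 against 10.70) and Gnai1 (15.09 ± 0.18 against 13.70). Of 6 tested group I pathway genes 3 were higher, Homer3 (13.83 ± 0.21 against 6.35), Gnaq (13.61 ± 0.27 against 11.24) and Plcb3 (7.23 ± 0.14 against 3.57), and Homer2 was lower (2.17 against 6.97). Slc1a6, the glutamate transporter of Purkinje neurons, averaged 11.87 ± 0.17 against 5.46. Grm5, the group I receptor measured here, read 2.10 in every Purkinje array.

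In the cortex layer 5b arrays read 12.29, 12.38 and 12.16 for Grm7, layer 6 arrays 11.62, 12.07 and 12.07 and layer 5a arrays 11.74, 11.32 and 11.50, against 10.29 to 11.48 with a median of 10.88 in unbound cortex. Layers 5b and 6 did not overlap the unbound arrays, and layer 5a did. The layer 5b difference was 1.45 ± 0.23 (SE, adjusted p = 4.1e-08) and the layer 6 difference 1.10 ± 0.23 (adjusted p = 2e-05). After quantile normalization they were 0.98 and 0.60, and the layer 6 difference was 0.88 without further scaling, none of these called. Cort+ (10.79 ± 0.05) and Cck+ neurons (10.54 ± 0.03) were within 2-fold of unbound cortex. The lower values of Cort+ and Pnoc+ neurons relative to the deep-layer mean, -1.11 ± 0.23 and -1.82 ± 0.23, were -0.61 and 0.00 after quantile normalization and not called; relative to the deep layers 36.5% of all genes were called lower in Cort+ and 81.7% in Pnoc+ neurons.

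Grm7 was low in cortical astrocytes, whose arrays read 4.11, 5.97, 5.31 and 4.87, at least 28.3-fold under unbound cortex (-5.76 ± 0.21, SE, adjusted p = 5.5e-43). Cortical mixed oligodendroglia read 7.60, 8.35 and 8.60 and were 6.24-fold lower. Cortical mature oligodendrocytes, at 9.75, 10.04 and 9.76, differed from unbound cortex by -0.97 ± 0.23 and were not called; with TRAP and unbound arrays of the same line and number as a block the difference was -1 and was called. Cerebellar mature oligodendrocytes read 6.65, 7.25 and 5.28 and were called 2.96-fold lower than unbound cerebellum, a call that ended after quantile normalization (-0.73). Striatal cholinergic neurons (8.48, 8.48 and 8.90) were 5.82-fold below unbound striatum, and basal forebrain cholinergic neurons (8.73, 8.93 and 7.96) were 6.87-fold below unbound basal forebrain, while brainstem motor neurons (9.59 ± 0.09) and spinal cholinergic neurons (9.77 to 10.14) stayed within 2-fold of their tissues.

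Grm8 encodes a group III receptor of presynaptic terminals and was at 6 or more in 6 of 24 populations. Those were stellate and basket neurons (7.87, 7.75 and 7.75), layer 5b (7.77, 7.89 and 7.63), unipolar brush neurons (7.60, 7.60 and 7.75), layer 6 (7.30, 7.08 and 6.98), layer 5a (6.74 in every array) and Golgi neurons (5.97, 5.97 and 6.15). All 6 were called above their tissue. Unbound cortex and unbound cerebellum averaged under 6 (4.54 and 4.03), so these populations were tested only through their own TRAP means. The minimum thus fixed the higher direction in advance. Unbound cerebellum read 3.56 to 5.86 with a median of 3.60 and unbound cortex 3.67 to 6.97 with a median of 4.43, so the folds are lower bounds: at least 3.46 in stellate and basket neurons (3.76 ± 0.29, SE, adjusted p = 8.8e-21), 3.4 in layer 5b (3.23 ± 0.28), 3.14 in unipolar brush neurons (3.62 ± 0.29), 2.17 in layer 6, 1.67 in layer 5a and 1.02 in Golgi neurons. After quantile normalization the layer 5a mean was 5.21, under the minimum, and the Golgi difference of 2.01 was 4.41. In both tissues the highest unbound array was that of the mature oligodendrocyte line JD307. The layer 5a arrays lay below that array and above the other 8.

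Stellate and basket neurons exceeded Golgi neurons in Grm8: Golgi minus stellate and basket was -1.76 ± 0.34 (SE, adjusted p = 3.7e-06), a 3.38-fold difference that ended after quantile normalization (-0.25); 55.3% of all genes were called lower in Golgi neurons there. Unipolar brush neurons exceeded granule neurons, at 2.02 in every array, at least 3.14-fold (5.63 ± 0.34, adjusted p = 8.9e-27). Layer 5a minus layer 5b was -1.03 ± 0.34 (adjusted p = 0.0087), called 2.04-fold lower where 1.56% of all genes were, -0.97 without layer 5b replicate 2 and -1.84 after quantile normalization. Medium spiny neurons (4.07 in every Drd1+ and 3.35 in every Drd2+ array) were at least 2.31-fold under the deep layers (-3.50 ± 0.22, adjusted p = 9.9e-26; -4.57 without further scaling). Brainstem was the only tissue whose unbound RNA was at 6 or more for Grm8, so only there could a lower TRAP level be called. Unbound brainstem read 7.02 in every array and brainstem motor neurons 5.40, 5.50 and 5.40, at least 2.03-fold lower. That call ended after quantile normalization (-0.76). The other 17 populations had both means under 6 and were not tested.

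**Figure D4:**
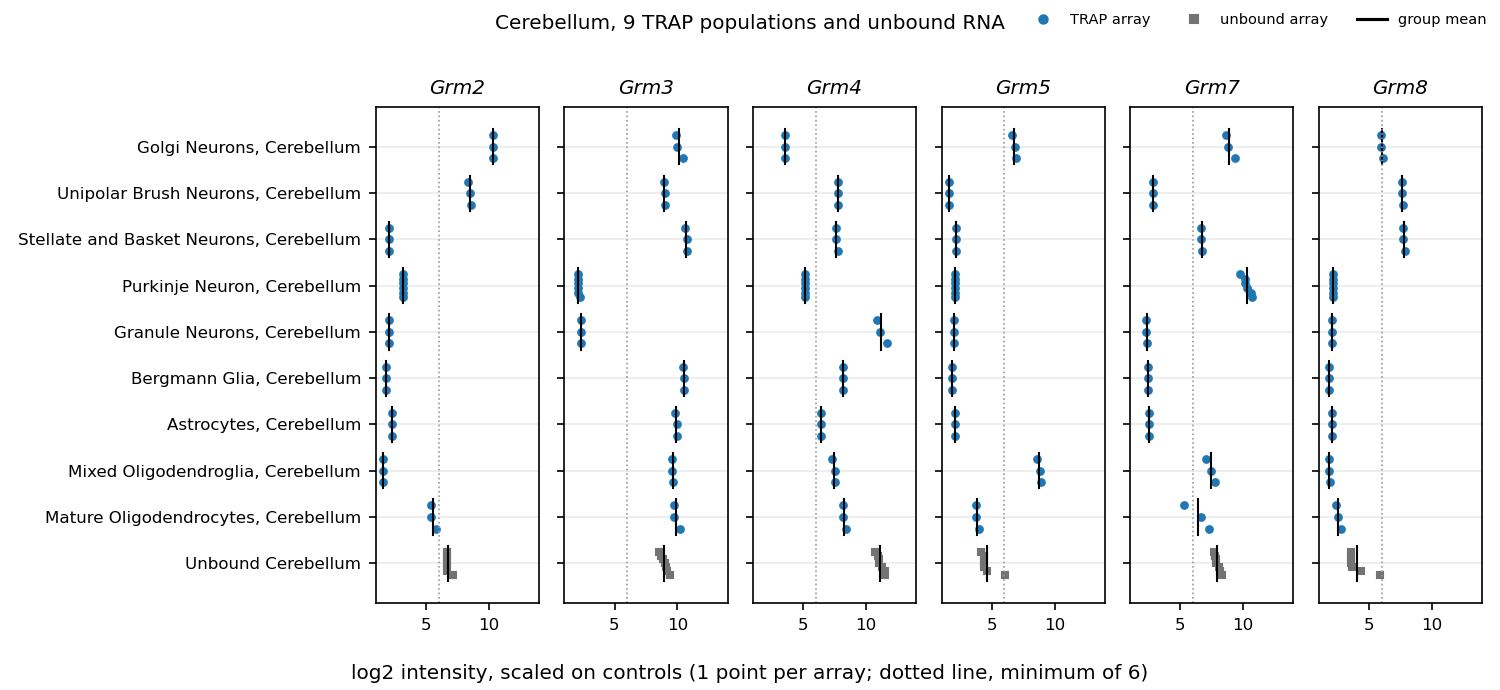
Log2 intensity, scaled on controls (horizontal axes), of the 6 receptor genes in 9 cerebellar TRAP populations and unbound cerebellum, with 1 point per array, bars for group means and a dotted line at the minimum of 6. Golgi arrays lie at 10.33 to 10.37 for Grm2, the driver of their line, granule arrays at 10.90 to 11.66 for Grm4 and Purkinje arrays at 9.77 to 10.69 for Grm7. On the tested Grm5 probe set no cerebellar neuron other than Golgi neurons is at 6 or more, and a second probe set reads 3.88 in Golgi neurons.

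In each cerebellar neuron population a different set of the 6 genes was at 6 or more. Granule neurons had Grm4 alone and Purkinje neurons Grm7 alone. Golgi neurons had Grm2, Grm3, Grm5, Grm7 and Grm8, stellate and basket neurons Grm3, Grm4, Grm7 and Grm8, and unipolar brush neurons Grm2, Grm3, Grm4 and Grm8. In Golgi neurons Grm2 is the driver of the line, and Grm5 counted on the tested probe set only, as the second read 3.88. Golgi neurons counted for Grm8 through a mean of 6.03, with 2 of 3 arrays at 5.97, and after quantile normalization Purkinje neurons also reached the minimum for Grm4, at 6.27. Stellate and basket neurons were called below unbound cerebellum for Grm4 (-3.50) and Grm7 (-1.27), and unipolar brush neurons for Grm4 (-3.34). Every granule marker was at 6 or more in both. Unipolar brush neurons did not separate from unbound cerebellum for Grm3 (0.01), and every astrocyte marker was at 6 or more there. The part of other cells in these values was not tested.

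The unbound fractions, which hold RNA of the whole tissue less the labelled ribosomes, differed as well. In the 5 comparisons between tissues 26 of 30 tests had enough signal, and 9 were called higher and 4 lower in the tissue named first, beside 11.4% and 20.6% (32% in all) of all genes. Unbound cortex minus unbound cerebellum was 5.66 ± 0.19 for Grm5 (SE, adjusted p = 1.4e-45, at least 19.4-fold), 2.87 ± 0.17 for Grm7 (7.29-fold) and 1.35 ± 0.16 for Grm3 (2.55-fold), and -5.63 ± 0.10 for Grm4 (at least 35.5-fold lower in cortex); 8.23% of all genes were called higher and 47.1% lower. After quantile normalization the first 3 were 6.92, 3.96 and 2.32. Unbound striatum exceeded unbound cerebellum at least 41.9-fold for Grm5 and 9.21-fold for Grm7, where 10.3% of all genes were called higher; after quantile normalization the log2 differences were 7.84 and 4.08, where that of Grm5 was 6.78 on the control scale. Grm5 was 2.16-fold higher in unbound striatum than in unbound cortex (1.11 ± 0.20, adjusted p = 6.1e-07), with overlapping arrays, and this ended after quantile normalization (0.93), without further scaling (0.79) and on the mean of the gene's probe sets (0.31); 17% of all genes were called higher. Unbound brainstem exceeded unbound spinal cord at least 1.26-fold for Grm2 (6.33 against 3.95 in every array) and at least 2.03-fold for Grm8 (7.02 against an average of 5.51 ± 0.10), where 8.29% of all genes were called higher.

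Similarity of pattern was described as Pearson's r over the 24 TRAP group means against 12399 other genes, with no test; the means share the normalization of their groups. The gene most like Grm5 was Cobl, an actin nucleator (r = 0.955), then Kcnq5, a potassium channel (0.945), and Lmo3, a transcriptional cofactor (0.937). Grm7 was followed by St8sia4, a polysialyltransferase (0.923), Etl4 (0.908) and Gria3, an AMPA receptor subunit (0.908). Grm3 was nearest to Nln, neurolysin (0.878), and Grm8 to Serpini1, neuroserpin (0.861). Grm2 was nearest to C230034O21Rik (0.831) and Grm4 to Sdc1, syndecan-1 (0.8). Among the members themselves Grm5 and Grm7 were most alike (0.807), then Grm2 and Grm8 (0.653), and Grm4 and Grm7 least (-0.363).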

How the data were processed

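RNA of TRAP and unbound fractions was amplified in 2 cycles and hybridized to arrays with 45101 probe sets, per the labels' protocols. The deposited values are linear intensities that the authors normalized with GCRMA within each group, per the series' design text; the GCRMA version is not given in the sources used here. The arrays fell into 30 sets with different lowest intensities, and these sets were the 30 groups. Intensities under 1 were set to 1 and log2 was taken. Each group was then shifted so that its mean over 18 biotinylated control probe sets was equal, as the design text recommends; those group means ran from 10.13 to 12.00 before. Of the probe sets 34945 had 1 gene symbol, 932 several and 9224 none, and a gene took the probe set with the highest mean over all arrays, giving 18193 genes.

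Tests used limma 3.58.1 in R 4.3.3 (lmFit, then eBayes with trend) in 1 fit over 76 TRAP and 31 unbound arrays, with Benjamini-Hochberg adjustment. A comparison of populations also required TRAP above unbound RNA on its higher side. A comparison with several populations on a side used the mean of their group means. The fits were tested on simulated data. Replicates are independent preparations per the design text, and the number of arrays limits the precision. That text describes TRAP and unbound RNA from the same preparation, so arrays of the same line, tissue and number were taken as pairs; the correlations of their deviations ran from 0.439 to 0.557 in brainstem, from 0.277 to 0.429 in basal forebrain, from -0.247 to 0.064 in spinal cord, from -0.155 to 0.152 in Purkinje neurons and from -0.008 to 0.162 in Bergmann glia.

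The members, marker lists and pathway lists were chosen with earlier results of these data known. The genes named are the 6 members in every comparison, for each member the genes with the highest correlation, and pathway genes called in a comparison described; of the pathway lists 9 of 12, 16 of 16, 7 of 9 and 4 of 4 genes were measured. Alternatives changed the scaling, the minimum, the probe set, the variance model, the arrays fitted, the unbound arrays, the lines and the replicate block, and left out each array. Figures were drawn with matplotlib 3.10.9.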

Additional observations from a re-analysis of the deposited data

Results flagged for a closer look

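In 9 of 30 combinations of gene and group with 4 to 10 arrays, a single array lay farther from the others than Dixon's 95% limit allows; chance gives about 1 in 20 for continuous values, a rate that does not hold where the other arrays are tied at a low value, as for 6.70 to 6.71, 5.57 and 2.11 here. Unbound arrays of the mature oligodendrocyte line JD307 account for 5 of them. In unbound cerebellum that array read 7.19 for Grm2 while the others read 6.70 to 6.71, 6.03 for Grm5 while the others read 4.14 to 4.59, and 5.86 for Grm8 while the others read 3.56 to 4.36. In unbound cortex the JD307 array read 6.97 for Grm8 while the others read 3.67 to 5.06, and 5.05 for Grm4 while the others read 5.57. In cortical astrocytes of line JD133, 1 array read 3.04 for Grm4 while the others read 2.64 to 2.66, and another read 6.04 for Grm5 while the others read 4.68 to 4.78. The remaining 2 were a Purkinje array of line DR166 at 2.22 for Grm3 while the others read 2.11, and an unbound striatum array of line DW167 at 3.67 for Grm8 while the others read 3.18 to 3.23. Apart from the arrays at 7.19, 6.97, 6.04 and 6.03, all of these lie under the minimum of 6.

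Glial differences depended on the tissue in 10 of 20 tests of the difference itself (limma, adjusted over all genes; between 37% and 61.2% of all genes were called in these tests). For astrocytes, TRAP minus unbound in cortex less that in cerebellum was 1.34 for Grm3 (2.30 in cortex and 0.96 in cerebellum), 1.97 for Grm4 (-2.77 and -4.74) and -2.68 for Grm5 (-5.22 and -2.54). Cerebellar astrocytes and unbound cerebellum both averaged under 6 for Grm5 (2.07 and 4.61), as did cortical astrocytes and unbound cortex for Grm4 (2.75 and 5.52), so the Grm4 and Grm5 values rest on a term between means under the minimum and give no measured size. For mixed oligodendroglia it was -1.26 for Grm3 (-0.62 and 0.65), 4.50 for Grm4 (0.78 and -3.72), -5.91 for Grm5 (-1.73 and 4.18) and -2.09 for Grm7 (-2.64 and -0.55). Mixed minus mature oligodendroglia in cortex less that in cerebellum was 3.80 for Grm4 (2.97 and -0.83), -5.12 for Grm5 (-0.15 and 4.97) and -2.68 for Grm7 (-1.67 and 1.02). For mixed oligodendroglia the Grm4 terms include unbound cortex at 5.52 and the Grm5 terms unbound cerebellum at 4.61, both under 6. Mixed minus mature terms include cortical mature oligodendrocytes at 3.33 for Grm4 and cerebellar mature oligodendrocytes at 3.83 for Grm5. These Grm4 and Grm5 values give no measured size either. For Grm4 and Grm5 the unbound tissues themselves differed by -5.63 and 5.66 (cortex minus cerebellum), which enters every term of TRAP minus unbound.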

How the results depend on the processing

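Of the 153 calls among 221 tested values, all were kept with no minimum, without the variance trend and with the compared arrays alone. Of the calls still testable, 139 of 151 were kept without further scaling, 113 of 136 after quantile normalization, 120 of 126 on the mean of the gene's probe sets, 95 of 95 at a minimum of 8, 45 of 47 with own unbound arrays and 837 of 845 over 79 fits that each left out 1 array; no called value turned to a call of the other sign. Deep layers without layer 5a, chosen after seeing the data, kept 12 of 14. Values not called as reported gained a call in 16 cases without further scaling, 17 after quantile normalization, 1 on the mean of the gene's probe sets, 4 with own unbound arrays, 18 over the fits that left out 1 array and 1 in deep layers without layer 5a. With the replicate block (consensus correlation 0.11) all 153 calls were kept and only Grm7 in cortical mature oligodendrocytes (-1) gained a call. Without the requirement of TRAP over unbound RNA, Grm4 in cortical minus cerebellar mixed oligodendroglia (-1.14) was called. The causes of these changes were not tested.

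A minimum of 8, which tests fewer genes, gave 21 higher and 28 lower calls against unbound RNA, 23 lower calls between populations and 2 lower calls between unbound tissues, where 7 stood without further scaling. Leaving out 1 array gave 31 to 33 higher and 49 to 50 lower calls against unbound RNA, 21 to 23 and 33 to 36 between populations, and 9 to 9 and 4 to 5 between unbound tissues.

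Values that changed sign, TRAP minus unbound unless a pair is named, were as follows. Without further scaling: Grm3 -0.08 in cortical mature oligodendrocytes; Grm5 -0.76 and Grm7 -1.09 in Drd1+ neurons; Grm3 -0.03, Grm4 -0.51 and Grm5 -0.73 in Drd2+ neurons; Grm7 0.32 in cerebellar mixed oligodendroglia, Grm4 -0.21 in medium spiny minus deep layers, Grm3 0.29 in cerebellar mixed minus mature and -0.27 in cortical minus cerebellar mixed oligodendroglia. After quantile normalization: Grm7 0.04 in spinal cholinergic, -0.37 in Drd1+, -0.42 in layer 5a and 0.38 in Pnoc+ neurons and 0.18 in cerebellar mixed oligodendroglia, Grm5 -0.01 in Drd1+ and -0.09 in layer 5a neurons, Grm3 0.45 in Golgi minus stellate and basket neurons, Grm5 -0.04 in Drd1+ minus Drd2+ and 0.14 in medium spiny minus deep layers, Grm4 1.77 and Grm8 0.03 in Pnoc+ minus deep layers, Grm4 -0.30 in motor minus spinal cholinergic neurons and -0.39 in unbound basal forebrain minus striatum. On the mean of the gene's probe sets: Grm5 -0.10 in Cort+, -0.23 in Drd1+ and -0.67 in Drd2+ neurons, Grm7 0.39 in Drd2+ neurons, -0.30 in Drd1+ minus Drd2+ and 0.82 in medium spiny minus deep layers, Grm5 0.33 in cortical minus cerebellar mixed oligodendroglia, and Grm5 0.20 and Grm7 -0.24 in unbound basal forebrain minus striatum. With own unbound arrays, Cck+ neurons stood at 0.09 for Grm3 and 0.25 for Grm7. Leaving out 1 array gave ranges of -0.02 to 0.22 for Grm2 in Cck+ minus Cort+ and -0.07 to 0.23 for Grm3 in cortical mature oligodendrocytes; Grm3 reached -0.01 in unipolar brush neurons, Grm4 -0.13 in granule neurons and Grm7 0.02 in Drd2+ neurons, and Grm5 in medium spiny minus deep layers ran from -0.12 to 0.00. Probe sets under 6 are near background, where differences have little precision.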
